A study of Mus musculus with 6 samples.

Results

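The scavenger and efferocytosis receptor set held 10 genes of the 33696 features in the count tables: Mrc1, Msr1, Cd163, Cd36, Lrp1, Stab1, Timd4, Itgav, Itgb5 and Mfge8. The genes were listed by name as partners of MERTK in the uptake of apoptotic cells, and all 10 were found by symbol. They were followed through monocyte and macrophage states, and through the other lineages, in the live (DAPI-negative), CD45-positive fraction of mouse mammary tumours, by droplet single-cell sequencing of 3' transcript ends. Triple negative breast cancer, MERTK inhibition and cyclophosphamide, an alkylating drug, are named in the title of the series. The libraries carried the treatment labels MRX, CTX, Combined, ctxd18t and combod18t, with 1 library for each; a further library, VC, was not analysed here. The labels give no expansion of these names and no strain, age, tumour model, dose or number of pooled animals. The protocol text is identical for every library and speaks of mice at day 7, treated 3 hours before harvest; it puts VC, MRX, CTX and Combined into 1 multiplexed run and does not name the other libraries, whose titles hold d18, read here as day 18. Day and run can therefore not be told apart between the day 18 libraries and the rest.

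The deposited tables held 4085 to 9064 cell barcodes and 39820290 to 100733879 unique molecular identifiers (UMIs, counted transcript molecules) a library, and 3845 to 8506 cells a library were kept. CTX and combod18t shared 34 barcodes, and Combined and ctxd18t shared 21; no other pair of the libraries shared any. Of the kept cells with a shared barcode, 5 of 31 and 4 of 20 had the same cell class in both libraries. With 1 library for each label there was no replicate, so no test was run and no p-value is given. Every interval below is a 95% interval that covers counting error only and not the variation between animals. PCR and capture losses are likewise not in these intervals.

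Efferocytosis is the clearance of dying cells by phagocytes. A dying cell exposes phosphatidylserine on its surface, which is bound either directly, by receptors such as TIM-4 (Timd4) and stabilin-1 (Stab1), or through soluble bridging proteins: MFG-E8 (Mfge8) links it to the integrins αvβ3 and αvβ5 (Itgav with Itgb3 or Itgb5), while GAS6 and protein S link it to the receptor tyrosine kinases TYRO3, AXL and MERTK. LRP1 is a large endocytic receptor that takes part in recognising calreticulin on dying cells. The scavenger receptors CD36, SR-A1 (Msr1), CD163 and the mannose receptor CD206 (Mrc1) take up oxidised lipids, modified lipoproteins, haptoglobin-haemoglobin complexes and mannosylated glycoproteins, and several of them are used as markers of alternatively activated macrophages.

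The promoters of the members on which the results turn are shown because these genes fell into patterns: Stab1 and Itgb5 followed Mertk across macrophage states, Mrc1 and Cd36 differed most between libraries among the members above 50 CPM (counts per 1000000 UMIs), and Timd4 was found mainly in dendritic cells. Each sequence runs from 250 bases before to 50 bases after the RefSeq gene start on GRCm38.p6, on the gene's strand, while the submitters' processing notes name GRCm39 for the counts. Capitals mark matches, on either strand, to TTC and GAA set apart by 4 bases (the STAT6 motif), GAGGAA (the core of the PU.1 motif), TGCTGA (a MAF half-site) or CACGTG (an E-box). Mrc1 lay at chr2:14229164-14229463 on the plus strand, Cd36 at chr5:17835847-17836146 on the minus strand, Stab1 at chr14:31168592-31168891 on the minus strand, Itgb5 at chr16:33829415-33829714 on the plus strand, Mertk at chr2:128698665-128698964 on the plus strand and Timd4 at chr11:46810549-46810848 on the plus strand.
Mrc1: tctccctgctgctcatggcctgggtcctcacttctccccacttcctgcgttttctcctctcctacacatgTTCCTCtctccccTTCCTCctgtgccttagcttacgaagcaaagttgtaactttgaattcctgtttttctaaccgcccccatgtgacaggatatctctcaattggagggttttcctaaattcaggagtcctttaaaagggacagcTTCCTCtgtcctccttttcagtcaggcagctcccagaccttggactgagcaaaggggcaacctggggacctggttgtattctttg
Cd36: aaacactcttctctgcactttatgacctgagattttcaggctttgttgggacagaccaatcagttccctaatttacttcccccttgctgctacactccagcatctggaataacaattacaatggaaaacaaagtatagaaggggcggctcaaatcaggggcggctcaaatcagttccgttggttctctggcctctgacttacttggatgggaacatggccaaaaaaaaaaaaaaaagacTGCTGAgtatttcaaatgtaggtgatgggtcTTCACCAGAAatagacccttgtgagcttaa
Stab1: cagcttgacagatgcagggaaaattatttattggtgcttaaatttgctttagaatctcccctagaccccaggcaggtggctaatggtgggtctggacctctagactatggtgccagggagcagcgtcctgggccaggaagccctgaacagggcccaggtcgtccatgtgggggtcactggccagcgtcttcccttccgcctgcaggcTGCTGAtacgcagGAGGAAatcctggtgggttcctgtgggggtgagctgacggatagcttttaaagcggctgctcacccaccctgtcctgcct
Itgb5: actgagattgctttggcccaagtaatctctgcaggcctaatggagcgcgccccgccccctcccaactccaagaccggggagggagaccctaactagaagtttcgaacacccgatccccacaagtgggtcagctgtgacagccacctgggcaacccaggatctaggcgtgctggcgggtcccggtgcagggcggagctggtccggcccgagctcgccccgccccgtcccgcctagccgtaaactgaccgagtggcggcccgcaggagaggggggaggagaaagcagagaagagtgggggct
Mertk: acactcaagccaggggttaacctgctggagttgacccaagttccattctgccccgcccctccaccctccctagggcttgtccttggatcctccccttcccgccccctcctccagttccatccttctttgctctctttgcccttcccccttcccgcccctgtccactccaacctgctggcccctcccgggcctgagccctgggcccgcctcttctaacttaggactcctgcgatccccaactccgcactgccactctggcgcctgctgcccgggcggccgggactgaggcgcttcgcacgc
Timd4: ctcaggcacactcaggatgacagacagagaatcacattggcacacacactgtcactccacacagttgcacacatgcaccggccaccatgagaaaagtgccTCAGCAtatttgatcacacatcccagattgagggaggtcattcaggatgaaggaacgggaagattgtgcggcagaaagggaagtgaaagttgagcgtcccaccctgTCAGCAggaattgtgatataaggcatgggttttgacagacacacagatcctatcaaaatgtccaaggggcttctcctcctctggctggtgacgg
The Mrc1 window held 3 PU.1 cores, all read on the opposite strand. Cd36 held 1 STAT6 motif, starting 21 bases after the gene start, and 1 MAF half-site. Stab1 held 1 PU.1 core and 1 MAF half-site within 43 bases before its start. Timd4 held 2 MAF half-sites, and the Itgb5 and Mertk windows held none of these letters. Among all 32851 promoters of the same length, 28.3% held a PU.1 core, 19.5% a MAF half-site, 7.15% an E-box and 6.95% a STAT6 motif, so single matches were common. Of the members not shown, Itgav held 2 PU.1 cores, Mfge8 held 1, Lrp1 and Cd163 held none, and Msr1 was not matched by symbol.

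Cells were clustered without the members, without Mertk and without the other genes of the uptake pathway, so the levels given here did not make the clusters. Clusters 0, 1, 6 and 10 carried monocyte-macrophage markers and are called monocyte-macrophage-like; they held 1369 cells in MRX, 4259 in CTX, 1165 in Combined, 739 cells in ctxd18t and 221 in combod18t. Cluster 0 was led by Ly6i and Inhba with Cxcl9 among its leading genes, cluster 1 by the complement genes C1qa and C1qc, cluster 6 by Plcb1 and F13a1, and cluster 10 had Rsad2 among its leading genes. Their mix differed between libraries: cluster 0 made up 52.0% of the class in CTX and 71.2% in Combined but 8.33% in MRX, 5.01% in ctxd18t and 7.69% in combod18t, and cluster 6 made up 47.1% in MRX, 36.9% in ctxd18t and 40.7% in combod18t but 6.97% in CTX and 6.52% in Combined. A finer clustering split the class into 10 states, used below by their leading genes. A C1qa-Ms4a7 cluster with T cell markers (Cd3e at 191.8 to 244.9 CPM) and a median depth 2.29 times that of its libraries was left out as mixed. Despite the CD45 gate, an epithelial-like and a fibroblast-like cluster were found; the fibroblast-like cells had 0.163 times the median depth and carried endothelial markers too.

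Of the 10 members, 6 (Mrc1, Msr1, Cd163, Cd36, Lrp1 and Itgb5) had their highest mean level in monocyte-macrophage-like cells, among classes with at least 50 cells in a library and for Cd163 on the strength of 1 library, and the other 4 had it elsewhere: Stab1 in fibroblast-like, Timd4 in conventional dendritic-like, Itgav in natural killer (NK)-like and Mfge8 in epithelial-like cells. Mertk, the receptor they were listed beside, was at 27.8 CPM (SD 8.91 over 5 libraries) in monocyte-macrophage-like cells, 3.64 CPM in conventional dendritic-like cells and 0.202 CPM in B-like cells. B-like cells of cluster 2 served as the background from free RNA, since they are not phagocytes of this kind. They are no such background for Cd36 and Itgav, which stood at 47.4 and 196 CPM in them.

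**Figure D1:**
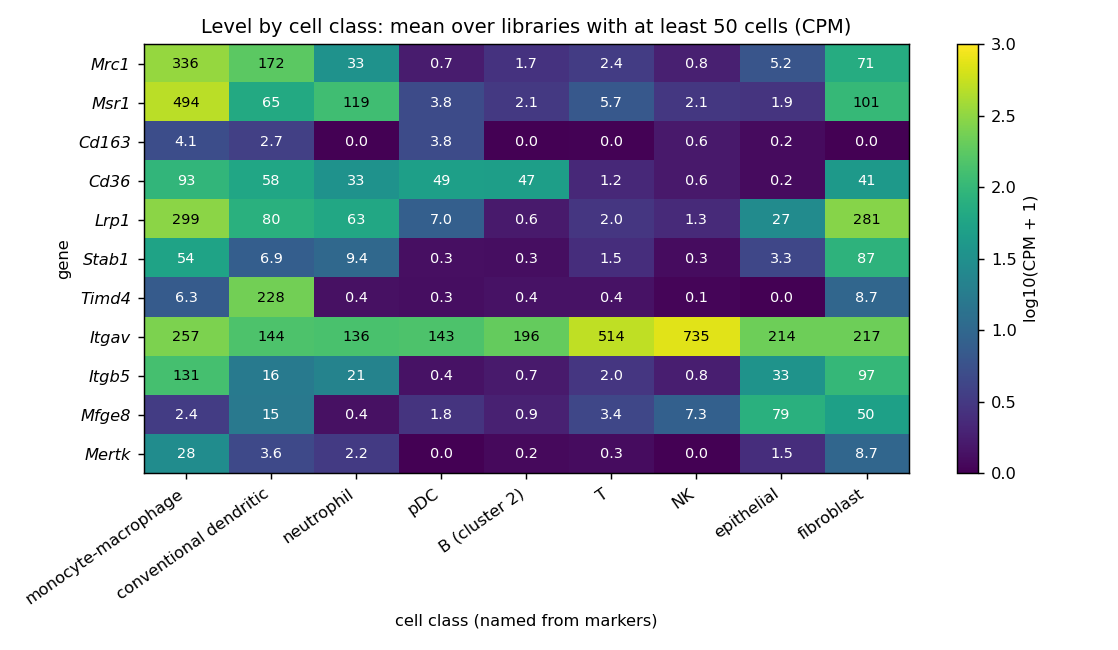
Mean level of each member and of Mertk (rows) in each cell class (columns), in CPM of summed UMI counts averaged over the libraries with at least 50 cells of the class; colour gives log10(CPM + 1). Values compare classes within a row and not genes with each other, because transcript ends differ in how they are captured. Timd4 peaks in conventional dendritic-like cells at 228 CPM, Itgav in NK-like cells at 735 CPM, and most other rows peak in the first column.

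Mrc1, the mannose receptor, was the member with the widest range between libraries among those above 50 CPM. In monocyte-macrophage-like cells it stood at 223 CPM in MRX, 214 CPM in CTX, 119 CPM in Combined, 863 CPM in ctxd18t and 261 CPM in combod18t. The ctxd18t library was far above the other 4, and Combined was the lowest. After thinning each cell to 1000 UMIs, the share of cells with an Mrc1 UMI was 15.1%, 13.05%, 7.76%, 29.3% and 16.9% in the same order (37.6%, 40.03%, 30.6%, 52.9% and 36.7% before thinning, at median depths of 8119 to 13229 UMIs), against at most 0.532% of thinned B-like cells. Over the classes, conventional dendritic-like cells came next at 172 CPM (69.3 to 307 over 5 libraries), a range that overlaps that of monocyte-macrophage-like cells (119 to 863), followed by fibroblast-like cells at 70.6 and neutrophil-like cells at 32.7 CPM.

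Within the class, Mrc1 marked particular macrophage states. In the state led by Ccl8, which also had Pf4, Folr2, Selenop and Cbr2 among its leading genes, Mrc1 was at 565 CPM in MRX, 861 in CTX, 511 in Combined, 1071 CPM in ctxd18t and 726 in combod18t. In the state led by Adgre4 and Ace, with the non-classical monocyte marker Treml4, it was at 5.82, 36.3 and 21.7 CPM in MRX, CTX and Combined, and in the Cxcl9-Gm15056 state at 61.8 in CTX and 35.1 in Combined. The Ccl8 state was thus above both of the others in every library in which they had at least 40 cells.

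The ctxd18t excess of Mrc1 sat largely in 1 small state. A state with the heat shock genes Hspa1a and Hspa1b among its leading genes held 107 cells in ctxd18t, 69 in MRX and 45 in CTX but 3 in Combined and 4 in combod18t, and its Mrc1 level was 2822 CPM in ctxd18t, 660 CPM in CTX and 189.9 CPM in MRX. Without this state Mrc1 stood at 473 CPM in ctxd18t, 239.9 in combod18t, 224 in MRX, 208 in CTX and 115 in Combined, so ctxd18t was still the highest and Combined the lowest. Il4ra, the interleukin-4 receptor chain, was at 174 CPM in monocyte-macrophage-like cells of ctxd18t against 129 CPM in combod18t. It was also the gene whose pattern was most like that of Mrc1 over the 17 cluster-by-library sums of at least 50 cells (Pearson 0.92 on log2 levels, among 4791 genes), before Kcnk13 (0.87) and Itsn1 (0.86).

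Cd163, the haemoglobin scavenger receptor, was nearly absent from monocyte-macrophage-like cells outside 1 library. It had 219 counts in monocyte-macrophage-like cells of ctxd18t (19.3 CPM, interval 16.8 to 22.0, which does not cover variation between cells) and 9, 5, 1 and 1 counts in MRX, CTX, Combined and combod18t. In ctxd18t, 208 of the 219 counts lay in 18 of the 107 cells of the Hspa1a-Hspa1b state, with up to 42 counts in 1 cell. The same state had 0 counts in its 69 MRX cells and its 45 CTX cells, which allows up to 7.22 and 5.18 CPM. All other monocyte-macrophage-like cells of that library together gave 1.16 CPM. Plasmacytoid dendritic (pDC)-like cells were at 3.84 CPM (2.10 to 4.93 over 5 libraries), a narrower range than the 0.0705 to 19.3 CPM of monocyte-macrophage-like cells. Conventional dendritic-like cells were at 2.65 CPM (0.819 to 8.40). On few counts, both of these dendritic classes lay above monocyte-macrophage-like cells in every library except ctxd18t. The pattern of Cd163 over the macrophage sums was most like those of Clcn5 (0.91), Ube2q2 (0.89) and Il4ra (0.82), which rests on 1 library.

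Msr1, scavenger receptor A, was the most even of the scavenger receptors. It stood at 443 CPM in MRX, 505 in CTX, 468 in Combined, 621 CPM in ctxd18t and 434 in combod18t, a mean of 494 CPM (SD 76.1, n = 5 libraries). After thinning, 31.2% to 42.1% of monocyte-macrophage-like cells had a UMI, against at most 0.673% of B-like cells. Neutrophil-like cells, at 119 CPM (28.0 to 215), fibroblast-like cells at 101 CPM and conventional dendritic-like cells at 65.2 CPM followed, with ranges that overlap each other but not that of monocyte-macrophage-like cells. Within the class it was higher in cluster 6, whose leading gene F13a1 is a monocyte gene (508 to 715 CPM) and in the Hspa1a-Hspa1b state (799 CPM in MRX, 695 in CTX, 810 in ctxd18t) than in the C1qa-C1qc cluster (287 to 434 CPM). In each library the C1qa-C1qc cluster was below cluster 6. The genes most like it were Adam8 (0.90), Rgcc (0.90) and Ltb4r1 (0.89).

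Cd36, a fatty acid and oxidised lipid receptor, stood at 41.8 CPM in MRX, 122 in CTX, 68.0 in Combined, 148 CPM in ctxd18t and 85.4 in combod18t. CTX and ctxd18t were thus the highest, and MRX was the lowest. Its level was highest in the Adgre4-Ace state (172 CPM in MRX, 274 in CTX, 171 in Combined) and in the Hspa1a-Hspa1b state (176 in MRX, 228 in CTX, 308 in ctxd18t), and low in the Ms4a7-C1qa macrophage state (7.94 to 65.9 CPM over 5 libraries). Of the states with at least 40 cells, that state was the lowest in CTX, Combined and ctxd18t. In MRX the Lyz1-Lyz2 state, at 9.40 CPM on 4 counts, lay below its 15.3 CPM, and in combod18t the Ccl8 state, at 45.5 CPM, lay below its 54.1 CPM. Unlike Mrc1 (1.74 CPM) and Msr1 (2.14 CPM), Cd36 was also found in B-like cells of cluster 2, at 47.4 CPM (15.5 to 104). It was at 48.7 CPM (33.0 to 58.8) in pDC-like cells, while T-like cells were at 1.21 and NK-like cells at 0.611 CPM. The B-like and pDC-like ranges overlap those of monocyte-macrophage-like (41.8 to 148) and conventional dendritic-like cells (20.7 to 91.5). In thinned B-like cells the share with a Cd36 UMI ran from 0.319% in Combined to 4.65% in ctxd18t, against at most 0.162% of thinned T-like cells. The genes most like Cd36 were Taf7 (0.86), Lilrb4b (0.84) and a gene without a symbol, ENSMUSG00000121501 (0.82).

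Lrp1 stood at 419 CPM in MRX, 294 in CTX, 193 in Combined, 336 CPM in ctxd18t and 255 in combod18t. MRX was the highest and Combined the lowest, and no 2 of these counting intervals overlapped. Fibroblast-like cells had a like level, 281 CPM (180.5 to 417 over 3 libraries), overlapping the 193 to 419 CPM of monocyte-macrophage-like cells, and the other classes reached at most 132 CPM in any library, in neutrophil-like cells. Within the class it was spread over the states, from 221 to 360.2 CPM in cluster 1 and 285 to 482 CPM in cluster 6. The most similar patterns were those of Igfbp6 (0.88), Apoc2 (0.85) and Id3 (0.83).

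**Figure D2:**
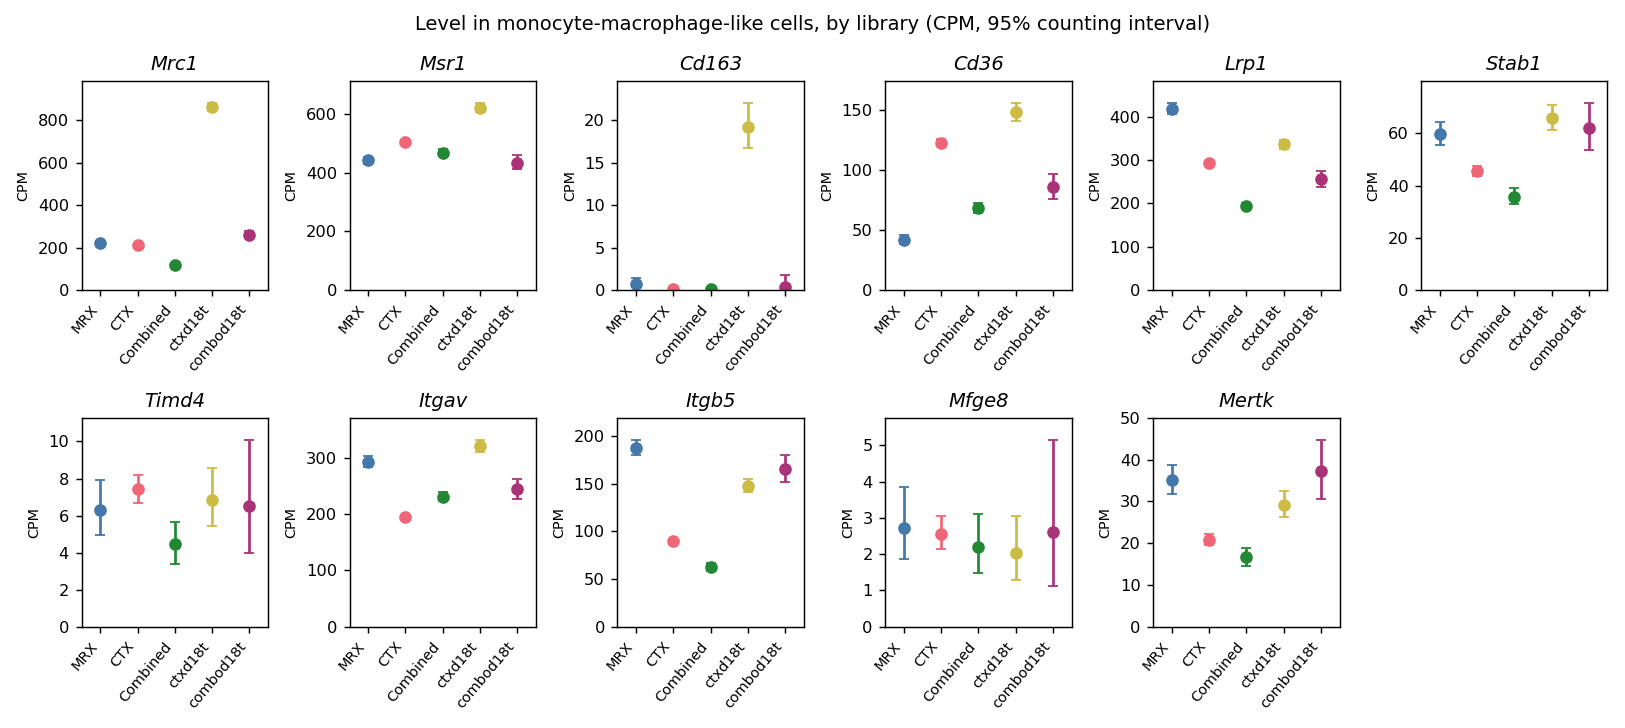
Level of each member and of Mertk in monocyte-macrophage-like cells of each library, in CPM with 95% counting intervals; each panel has its own axis starting at 0. The ctxd18t library stands apart for Mrc1 at 863 CPM and for Cd163 at 19.3 CPM, while Msr1 keeps within 434 to 621 CPM.

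Stab1, stabilin-1, a direct phosphatidylserine receptor, was at 59.7 CPM in MRX, 45.7 in CTX, 35.8 in Combined, 65.8 CPM in ctxd18t and 62.0 in combod18t. CTX and Combined were the lowest, and the intervals of MRX, ctxd18t and combod18t overlapped. The mean of 53.8 CPM lay below that of fibroblast-like cells, 86.7 CPM, but the range there (22.1 to 141 over 3 libraries) was wide, came from a cluster with endothelial markers and overlapped it. In the Ccl8 state Stab1 was at 94.7 to 164 CPM over the 5 libraries and in the Ms4a7-C1qa state at 50.1 to 86.2 CPM, against 13.8 to 17.5 CPM in the Adgre4-Ace state. Stab1 was thus highest in the state that also had the highest Mrc1 in each library, setting aside the Hspa1a-Hspa1b cells. The most similar genes were Cpd (0.95), Bach2os (0.94) and Cd72 (0.93).

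Timd4, encoding the phosphatidylserine receptor TIM-4 of resident macrophages, was rare in these tumour macrophages. It stood at 6.29 CPM in MRX, 7.41 in CTX, 4.44 in Combined, 6.87 CPM in ctxd18t and 6.52 in combod18t, with overlapping intervals except between CTX and Combined. At most 1.09% of thinned monocyte-macrophage-like cells had a UMI. It was at most 0.924 CPM in the state led by the monocyte gene Vcan and by Plcb1, and at 7.45 to 18.02 CPM in the Ms4a7-C1qa state.

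Most Timd4 transcripts came from conventional dendritic-like cells, antigen-presenting cells led here by Mgl2 and Cd209a. They stood at 245 CPM in MRX, 217 in CTX, 146 in Combined, 311 CPM in ctxd18t and 220.4 in combod18t, a mean of 228 CPM (SD 59.2) whose range did not overlap that of any other class with at least 50 cells in a library. A small migratory dendritic-like class of 10 to 30 cells a library came close, at 219.8 CPM in MRX, 172 in CTX, 131 in Combined, 215 CPM in ctxd18t and 146 in combod18t, and held 3.57% to 10.9% of the Timd4 counts. The conventional dendritic-like cells were 3.40% of MRX cells and held 81.9% of its Timd4 counts; the share of counts was 71.7% for CTX, 64.5% for Combined, 74.2% for ctxd18t and 68.9% for combod18t. After thinning, 16.1%, 13.7%, 13.8%, 20.1% and 25.4% of the conventional dendritic-like cells had a Timd4 UMI, while none of the thinned B-like cells did in any library, with exact upper bounds of 0.588% to 1.94%.

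The dendritic cells were not alike in Timd4. In a finer clustering of that class, chosen after seeing the data, sub-cluster 1 stood at 453 CPM in MRX, 335 in CTX, 276 in Combined, 687 CPM in ctxd18t and, from 10 cells, 813 CPM in combod18t. Sub-cluster 4, which carried the conventional type 1 dendritic markers Xcr1 and Clec9a at 408 and 318 CPM, was at 78.8 CPM in MRX, 131 in CTX, 45.7 in Combined, 100.4 CPM in ctxd18t and 49.5 in combod18t. The Xcr1-Clec9a cells were below sub-cluster 1 in each of the 5 libraries. Sub-cluster 0 was at 272 CPM in MRX and 253 in CTX, and sub-cluster 3 at 169.5 to 254 CPM over the libraries. Sub-cluster 2 was at 49.3 CPM in CTX, from 167 cells and below the Xcr1-Clec9a cells there, and sub-cluster 5, of 39 cells in all, reached 1017 CPM in CTX. Mrc1 was also present in conventional dendritic-like cells, at 164 CPM in MRX, 307 in CTX, 149.6 in Combined, 170.5 CPM in ctxd18t and 69.3 in combod18t. Of the 409 cells in CTX, 167 lay in sub-cluster 2, which had the macrophage genes C1qa and Csf1r at 729 and 149 CPM and the dendritic gene Flt3 at 3.81 CPM over the libraries. Of the leading genes of the class, it had Mgl2 at 867, Ccl17 at 157 and Cd209a at 75.3 CPM. C1qa was also at 424 CPM in sub-cluster 3 and at 265.5 CPM in the Xcr1-Clec9a cells. In CTX, Mrc1 was at 452 CPM in sub-cluster 2, at 376 CPM in sub-cluster 0 and at 84.1 CPM in sub-cluster 1, while sub-cluster 2 held 1 to 18 cells in the other libraries.

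Itgav, the integrin αv chain that pairs with several β chains, had its highest levels outside the macrophages. NK-like cells stood at 872 CPM in MRX, 643 in CTX, 749.6 in Combined, 608 CPM in ctxd18t and 801 in combod18t, and monocyte-macrophage-like cells at 293 (MRX), 194 (CTX), 231 (Combined), 321 (ctxd18t) and 244 CPM (combod18t). NK-like cells were above monocyte-macrophage-like cells in each library, and after thinning 30.5% to 49.8% of them had an Itgav UMI. T-like cells came second at 514 CPM (361 to 750), overlapping the NK-like range (608 to 872); fibroblast-like, epithelial-like and B-like cells followed at 217, 214 and 196 CPM with overlapping ranges.

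The T-like mean of Itgav hid a wide split. Cluster 9, led by Il1rl1 and Itgb8 and with Foxp3, the regulatory T cell factor, among its leading genes, was at 1565 CPM in MRX, 980 in CTX, 853 in Combined, 1444 CPM in ctxd18t and 1623 in combod18t. Cluster 14, led by Ccl1 and Penk, was at 1565 (38 cells), 1114, 1264, 1616 and 1961 CPM. Cluster 3, led by Lef1, a gene of naive T cells, was at 53.7, 28.0, 49.99, 47.9 and 45.2 CPM in the same order. The regulatory-marker cluster thus lay above both NK-like and monocyte-macrophage-like cells of the same library in all 5 libraries, and the Lef1 cluster lay below them. Itgb8, the β chain that pairs with αv to activate TGF-β, was at 226 to 675 CPM in cluster 9 against 0.338 to 10.4 CPM in monocyte-macrophage-like cells, but it was a leading gene of that cluster and had been used to form it.

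**Figure D3:**
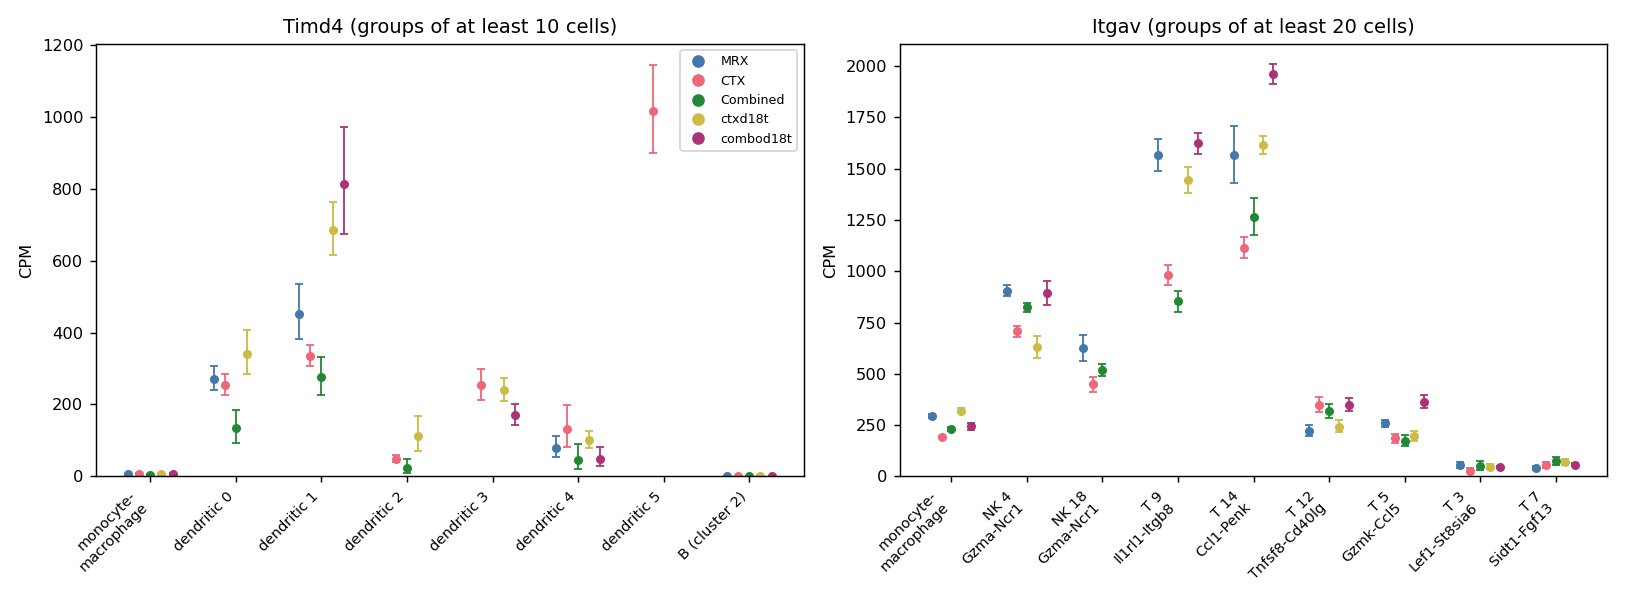
Left, Timd4 in monocyte-macrophage-like cells, in 6 sub-clusters of conventional dendritic-like cells and in B-like cells; right, Itgav in monocyte-macrophage-like, NK-like and T-like clusters, both in CPM with 95% counting intervals, 1 point for each library with at least 10 (left) or 20 (right) cells. Monocyte-macrophage-like cells lie at 4.44 to 7.41 CPM for Timd4, at the foot of the left axis, and the Il1rl1-Itgb8 and Ccl1-Penk T clusters lie at 853 to 1961 CPM for Itgav.

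Itgb5, the β5 chain that binds MFG-E8 together with αv, was a macrophage gene. It stood at 188 CPM in MRX, 89.8 in CTX, 62.6 in Combined, 148 CPM in ctxd18t and 165 in combod18t. CTX and Combined were the lowest, as they were for Stab1. The mean of 131 CPM (SD 52.6) was followed by 97.4 CPM in fibroblast-like cells, with overlapping ranges, and then by 33.3 CPM in epithelial-like cells. Itgb5 was highest in the Ms4a7-C1qa state, at 322 CPM in MRX, 232 in CTX, 305 in Combined, 315 CPM in ctxd18t and 309 in combod18t, and low in the Cxcl9-Gm15056 state, at 42.9 CPM in CTX and 30.3 in Combined. Its most similar genes were the macrophage genes Cx3cr1 (0.96) and Apoe (0.96), and Zdhhc14 (0.94). For Itgav they were Cxcl1 (0.82), Gbe1 (0.81) and Furin (0.80). Itgb3, the other β chain of MFG-E8 binding, was at 0.510 to 6.34 CPM in monocyte-macrophage-like cells and at 138 to 243 CPM in B-like cells.

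Mfge8, the bridging protein itself, was low in macrophages. Monocyte-macrophage-like cells stood at 2.72 CPM in MRX, 2.56 in CTX, 2.18 in Combined, 2.03 CPM in ctxd18t and 2.61 in combod18t, on 8 to 127 counts, with overlapping intervals. Epithelial-like cells were at 111 CPM in CTX and 47.1 CPM in ctxd18t, the libraries with at least 50 of them, and fibroblast-like cells at 49.7 CPM (32.3 to 62.7 over 3 libraries). Among immune classes with at least 50 cells in a library the order began with conventional dendritic-like (15.2 CPM, 8.88 to 24.8), NK-like (7.33, 5.95 to 9.24) and T-like cells (3.39, 2.44 to 4.05). Monocyte-macrophage-like (2.42, 2.03 to 2.72), pDC-like (1.79, 0 to 3.78) and neutrophil-like cells (0.380, 0 to 0.717) followed, against 0.872 CPM in B-like cells. All neighbours in this order overlap except NK-like and T-like cells. The migratory dendritic-like cells, on 4 to 27 counts, were at 83.4 CPM in MRX, 44.3 in CTX, 38.6 in Combined, 6.71 CPM in ctxd18t and 94.2 in combod18t, above conventional dendritic-like cells in every library except ctxd18t. The CD45 gate limits what these libraries can say of Mfge8 in stromal and tumour cells, of which few were captured.

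**Figure D4:**
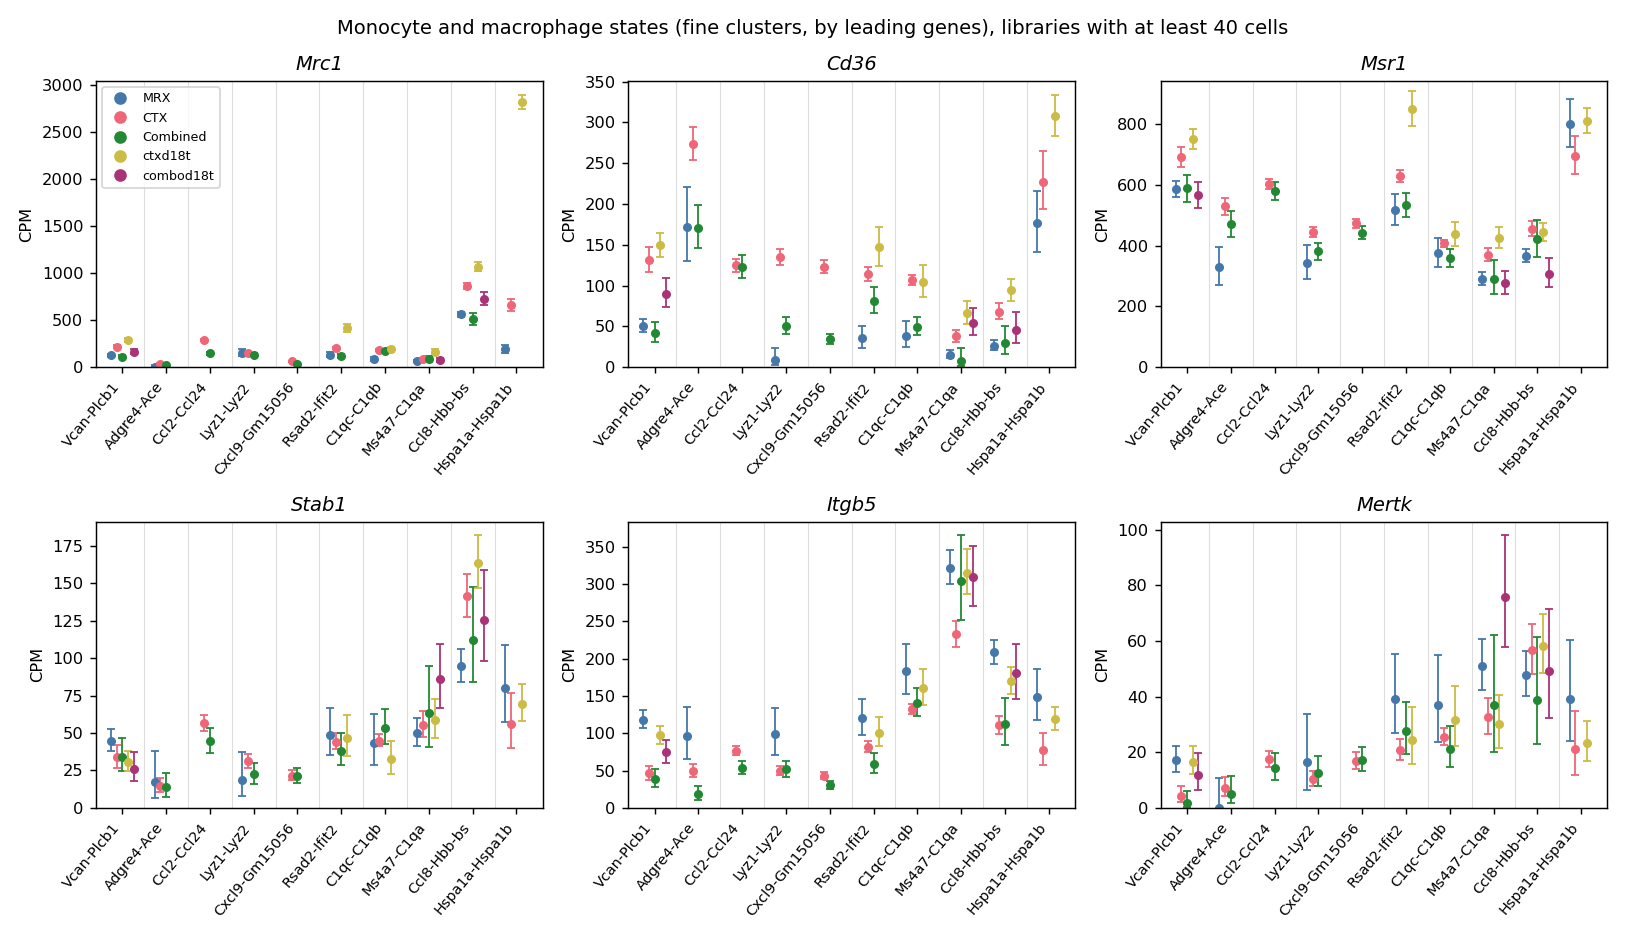
Levels of Mrc1, Cd36, Msr1, Stab1, Itgb5 and Mertk in the monocyte and macrophage states of the finer clustering, named by their leading genes, in CPM with 95% counting intervals; 1 point for each library with at least 40 cells of the state. Stab1 is highest in the Ccl8-Hbb-bs state (94.7 to 164 CPM), Itgb5 in the Ms4a7-C1qa state (232 to 322 CPM), and Cd36 in the Adgre4-Ace and Hspa1a-Hspa1b states.

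Mertk stood at 35.1 CPM in MRX, 20.8 in CTX, 16.6 in Combined, 29.2 CPM in ctxd18t and 37.2 in combod18t, with CTX and Combined again the lowest. Over the 17 cluster-by-library sums, Stab1 (Pearson 0.90, Spearman 0.91), Itgb5 (0.81 and 0.81) and Timd4 (0.73 and 0.75) varied with Mertk, Itgav (0.35) and Mrc1 (0.34) did so weakly, Cd163 (0.18), Lrp1 (0.02) and Mfge8 (0.00) hardly, and Msr1 (-0.49) and Cd36 (-0.55) in the opposite direction. The lower place of Cd163 held for Pearson only, since its Spearman value was 0.46, beside 0.44 for Itgav and 0.44 for Mrc1. Among the members themselves, Stab1 went with Itgb5 (0.88), Mrc1 with Cd163 (0.79) and Msr1 with Cd36 (0.75). Timd4 went with Stab1 too (0.73). Mertk, Stab1 and Itgb5 were highest in the Ccl8 or the Ms4a7-C1qa state of each library, while Timd4, on few counts, was highest in the Lyz1-Lyz2 state in MRX (23.5 CPM) and in the C1qc-C1qb state in Combined (16.2 CPM). Msr1 and Cd36 were high in the Hspa1a-Hspa1b state. These sums share libraries and clusters, so the values are a description and not a test.

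The number of members seen in a cell depends on depth, so libraries were compared after thinning. With all UMIs, monocyte-macrophage-like cells had a UMI of 3.57 (Combined) to 4.62 (ctxd18t) members on average. After thinning to 1000 UMIs, a monocyte-macrophage-like cell had a UMI of 1.25 members on average for MRX, 1.15 for CTX, 0.934 for Combined, 1.60 for ctxd18t and 1.123 for combod18t, and 36.8%, 31.1%, 22.8%, 49.0% and 31.5% of cells had 2 or more. Combined was the lowest and ctxd18t the highest. B-like cells had 0.150 to 0.261 members, and Itgav alone had a UMI in 12.3% to 22.9% of them. In ctxd18t the cells of the Hspa1a-Hspa1b state had 2.28 members, and 76.6% of them had 2 or more.

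The first comparison set Combined beside CTX, libraries of 1 run. The title pairs MERTK inhibition with cyclophosphamide, and the labels do not state the agents of each library. Values are log2 ratios of CPM + 1, in which low genes appear to change less than they do. Lower in Combined were Mrc1 at -0.84 (interval -0.92 to -0.77), Cd36 at -0.84 (-0.95 to -0.75), Lrp1 at -0.60 (-0.66 to -0.55), Itgb5 at -0.51 (-0.63 to -0.42) and Stab1 at -0.34 (-0.49 to -0.21). Msr1 was nearly level at -0.11 (-0.15 to -0.07). Itgav was the only member higher, at 0.25 (0.19 to 0.31). Timd4 was lower too, at -0.63 on 63 and 368 counts, and the intervals of Mfge8 and Cd163 covered 0. None of the 6 members that passed the count and level minimum reached a log2 ratio of 1 in size, against 0.367% of all 3543 genes that passed it; the median over these 6 members was -0.56 (-0.43 over all 10), and that over the 3543 genes 0.07. The 5th and 95th percentiles over the 3543 genes were -0.42 and 0.39. Mertk was at -0.30 (-0.53 to -0.12).

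Part of the Combined-CTX difference moved with the cluster mix. With both libraries given the same mix of clusters 0, 1, 6 and 10, Mrc1 was at -0.51, Itgb5 at -0.16, Stab1 at -0.09 and Mertk at -0.05, whereas Cd36 (-0.94), Lrp1 (-0.53) and Itgav (0.25) kept their size. Cd36 was lower in Combined in each of the 4 clusters, at 71.0 against 131 CPM in cluster 0, 27.3 against 85.6 in cluster 1, 168 against 274 in cluster 6 and 60.3 against 118 in cluster 10. Mrc1 was also lower in all 4, with 81.6 against 125, 240.3 against 286, 164 against 280.4 and 200.2 against 322 CPM.

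The same contrast at day 18, combod18t beside ctxd18t, rested on 3066448 and 11357913 UMIs. Mrc1 was lower in combod18t by a log2 ratio of -1.72 (-1.83 to -1.62), Cd36 by -0.78 (-0.99 to -0.60), Msr1 by -0.51 (-0.60 to -0.43), Lrp1 by -0.40 (-0.51 to -0.29) and Itgav by -0.40 (-0.51 to -0.28). Itgb5 was slightly higher at 0.16 (0.02 to 0.31), and the intervals of Stab1 (-0.08), Timd4 (-0.06) and Mfge8 (0.25) covered 0. Of the 7 members that passed the minimum, 1, Mrc1, reached a log2 ratio of 1 in size, against 1.61% of 3963 genes; the median was -0.40 over these 7 members and also over all 10, and 0.04 over the 3963 genes. Mertk was at 0.34 (0.03 to 0.66). Cd163, with 1 count against 219, gave a ratio without pseudocount of -5.89 with an interval from -11.2 to -3.39, which does not cover variation between cells.

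The day 18 difference in Mrc1 moved with the Hspa1a-Hspa1b state described above. Without its cells, 107 in ctxd18t and 4 in combod18t, the log2 ratio of CPM + 1 was -0.98 for Mrc1, -0.47 for Cd36 and -0.70 for Cd163. No member reached 1 in size on this scale. The Cd163 value, from 0.334 CPM in combod18t and 1.16 CPM in ctxd18t, cannot be set beside its ratio without pseudocount given above. Over clusters 1 and 6 at the same mix, Mrc1 was at -1.06 and Cd36 at -1.09. Mrc1 was lower in combod18t in cluster 1, 389 against 647 CPM, and in cluster 6, 170.5 against 537 CPM, and Cd36 was at 47.9 against 71.7 and at 79.6 against 205 CPM. The 221 monocyte-macrophage-like cells of combod18t limit all of these values. The 156 cells left out of that library as mixed held 48.3% of its Mrc1, 48.3% of its Mertk, 45.2% of its Itgb5 and 42.8% of its Stab1 counts, against 40.4%, 44.0%, 40.3% and 40.9% in the kept class; in ctxd18t the mixed cells held 14.7%, 18.4%, 26.2% and 15.6%. Counting these cells in, the log2 ratio of combod18t against ctxd18t was -1.58 for Mrc1, -1.49 for Cd36 and 0.16 for Itgav, whose direction thus turned. The cells counted in include the C1qa-Ms4a7 cluster with T cell markers. T-like cells had more Itgav than monocyte-macrophage-like cells in each library. What turned the direction was not tested.

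**Figure D5:**
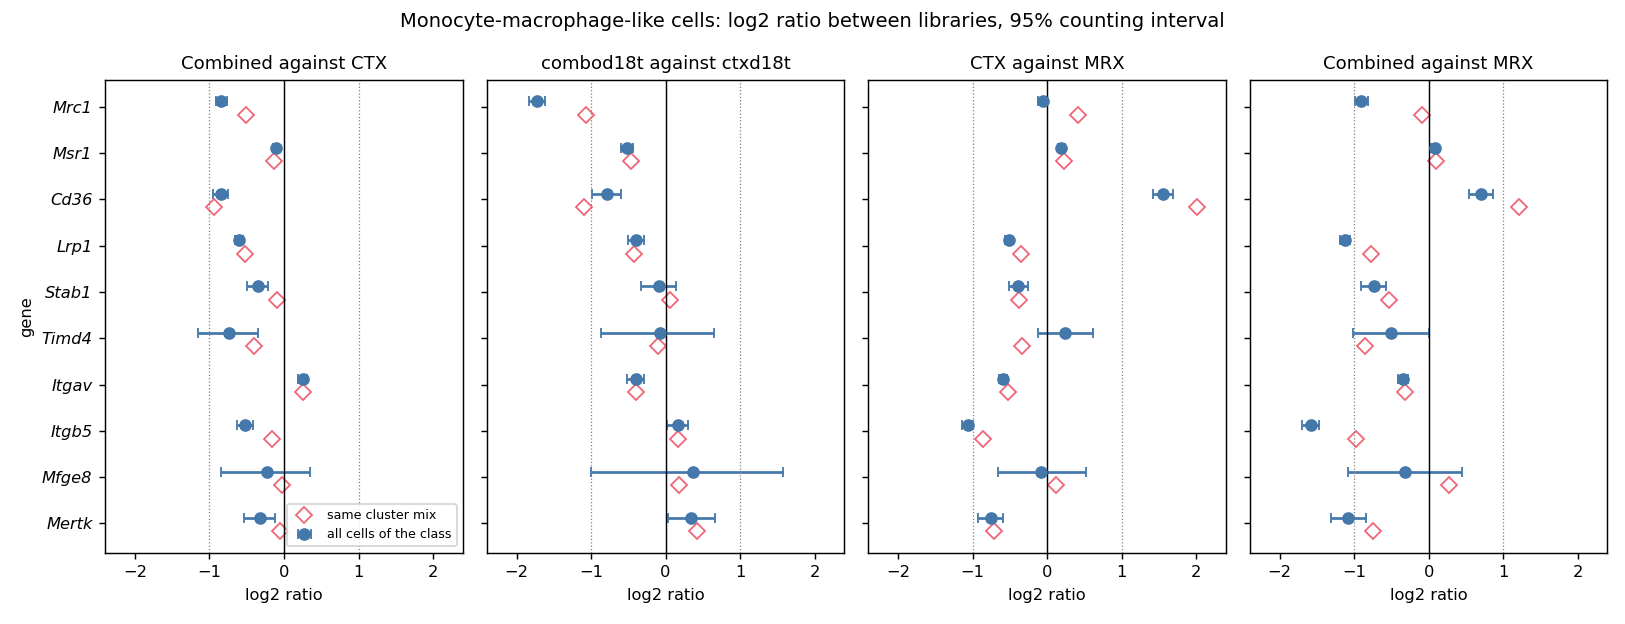
Log2 ratio of each member and of Mertk between 2 libraries in monocyte-macrophage-like cells, without pseudocount, with 95% counting intervals (filled circles), and with both libraries given the same cluster mix, on CPM + 1 (open diamonds); dotted lines mark a log2 ratio of 1 in size and Cd163 is left out for its few counts. Mrc1, Cd36, Msr1 and Lrp1 lie left of 0 in the 2 left panels, and Cd36 lies right of 0 in the 2 right panels.

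MRX was set beside CTX and Combined, in the same run; these comparisons share libraries with each other and with the first. In CTX, Cd36 was higher than in MRX by a log2 ratio of 1.53 (1.42 to 1.69) and Itgb5 lower by -1.06 (-1.14 to -0.99); these were 2 of the 7 members that passed the minimum, against 3.42% of 3534 genes past a log2 ratio of 1 in size. Itgav (-0.59), Lrp1 (-0.51) and Stab1 (-0.38) were lower too, Msr1 was slightly higher (0.19), and the intervals of Mrc1 (-0.06), Timd4 (0.21) and Mfge8 (-0.06) covered 0. Cd163, with 5 counts against 9, gave a ratio without pseudocount of -2.92 (-4.85 to -1.19), and Mertk was at -0.73 (-0.92 to -0.59). Cd36 was higher in CTX in each of the 4 clusters, for example 274 against 55.9 CPM in cluster 6. The gap was not of 1 size over the finer states. It was narrower in the Hspa1a-Hspa1b state, at 228 CPM in CTX against 176 in MRX, and in the Adgre4-Ace state, as given above. An equal cluster mix does not fix the shares of these finer states. At the same cluster mix Cd36 was at 2.01, Itgb5 at -0.86 and Mrc1 at 0.42.

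In Combined against MRX, Itgb5 (-1.57, -1.70 to -1.47) and Lrp1 (-1.11, -1.19 to -1.05) were lower by a log2 ratio of at least 1, which makes 2 of 7 members, against 6.32% of 3655 genes. Mrc1 (-0.90), Stab1 (-0.72) and Itgav (-0.34) were also lower, Cd36 (0.69) was higher and Msr1 slightly so (0.08, 0.03 to 0.13). The intervals of Timd4 (-0.42) and Mfge8 (-0.22) covered 0, and Cd163, with 1 count against 9, gave a ratio without pseudocount of -3.44 (-8.89 to -0.59). At the same cluster mix Lrp1 was at -0.78, Itgb5 at -0.97, Mrc1 at -0.09 and Cd36 at 1.21, so only Cd36 was then past 1 in size. Mertk was at -1.03 (-1.31 to -0.84) in the class and at -0.75 at the same mix.

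Of 55 other genes of the uptake pathway (other phosphatidylserine receptors, bridging molecules, integrin partners, scavenger receptors, engulfment machinery, inhibitory signals and lipid handling), 32 passed the minimum in Combined against CTX and none reached a log2 ratio of 1 in size (0.367% of all genes that passed did), with a median of -0.03. At day 18, 1 of 35 was higher and none lower by that size (1.61% of all genes reached it in either direction), with a median of 0.11. That gene was Edil3, a secreted bridging protein that binds phosphatidylserine and αv integrins, at 39.4 CPM in MRX, 24.5 in CTX, 33.7 in Combined, 34.7 CPM in ctxd18t and 71.7 in combod18t, a log2 ratio of 1.03 (0.80 to 1.29) at day 18. In cluster 6 it was at 115 CPM in combod18t against 38.1 in ctxd18t, and in cluster 1 at 36.5 against 34.2 CPM. Against MRX, the β-glucan receptor Clec7a was higher in CTX (1.29) and in Combined (1.16), and the oxidised lipoprotein receptor Olr1 was lower in Combined (-1.01). These made 1 of 33 genes in CTX, against 3.42% of all genes, and 2 of 32 in Combined, against 6.32%, so the pathway genes were near the background.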

How the data were processed

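Live CD45-positive cells of mouse mammary tumours were captured with a 10x 3' on-chip multiplexing kit and read out by the authors using Cell Ranger (version 9.0.1), as the labels' protocols state; the submitters' processing notes name GRCm39 and Seurat 5.2.0. For each library the authors deposited a matrix of raw UMI counts, whole numbers with no normalisation. Each of the 5 treatment labels used here (of 6) had 1 library, so comparisons were made between single libraries with no test. The VC library was not analysed here.

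Cells with at least 200 genes and at most 15% mitochondrial counts were kept. Scrublet (scanpy 1.11.5, expected rate 0.06) marked under 0.5% of cells on its own, so the highest 5% by score were removed, except cells tied at that score, which took out 160 to 392 cells a library. Counts scaled to 10000 per cell, 2000 variable genes, 30 principal components and 15 neighbours gave 24 Leiden clusters (leidenalg 0.10.2, resolution 1; 2 for the finer states; 0.5 for the dendritic sub-clusters), over all libraries without integration. Kept out were the members, the 55 pathway genes, and genes of the cell cycle, mitochondria, ribosomes, haemoglobin and antigen receptors. Clusters were named from marker lists by the mean of their 5 best markers, with at least 3 markers seen in 10% of cells. A cluster was set aside as mixed if its second class reached 0.4 of the best score with at least 3 markers seen and its depth was over 1.5 times that of its libraries, unless both classes were dendritic, a rule chosen after seeing the data. It took out a C1qa-Ms4a7 cluster (21 MRX, 384 CTX, 105 Combined, 149 ctxd18t and 148 combod18t cells) and a Klk1-Ccr9 cluster (16, 150, 85, 33 and 8 cells).

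Levels are CPM of the summed counts of each class or cluster, library by library, with exact Poisson intervals. Ratios are log2 of CPM + 1, with the exact conditional binomial interval of the ratio without pseudocount. Shares have exact Clopper-Pearson intervals, and thinning drew 1000 UMIs per cell and left out shallower cells. Genes counted as passing the minimum had at least 100 counts over the pair and 50 CPM in 1 library. Class means use libraries with at least 50 cells, and same-mix ratios use clusters with at least 20 cells in both. The precision follows the depth of the monocyte-macrophage-like sums: 11769048 UMIs for MRX, 49644847 for CTX, 14194327 for Combined, 11357913 for ctxd18t and 3066448 for combod18t. The code for ratios and their intervals was tested on simulated data.

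The 10 members, the pathway list and the markers were chosen with earlier results of these data known. All members and Mertk are named in each comparison; pathway genes are named where the log2 ratio reached 1 in size in either combination-to-CTX pair, and for each member above 50 CPM the 3 genes of highest Pearson correlation. Clec7a, Olr1, Gas6, Itgb3, Itgb8, Hbb-bs and Cd3e fall outside this rule and were chosen after their values were seen. A gene among the leading genes of some clusters is not reported here, and clusters are called by others of their leading genes. Alternatives were another pseudocount, thinning, median-of-ratios scaling, means of cells, 500 genes per cell, no doublet removal, the finer clustering, mixed clusters kept, an equal cluster mix, and, added after seeing the data, leaving out the Hspa1a-Hspa1b state or shared barcodes.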

Additional observations from a re-analysis of the deposited data

Results flagged for a closer look

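Among the members and Mertk, 3 genes had opposite signs in monocyte-macrophage-like cells in the 2 contrasts of a combination library with its CTX counterpart, with counting intervals off 0 in both. Itgav was higher in Combined than in CTX (log2 ratio 0.25) and lower in combod18t than in ctxd18t (-0.40). With the mixed clusters kept, among them the C1qa-Ms4a7 cluster with T cell markers, the combod18t value was 0.16 and so not opposite. Itgb5 was lower in Combined (-0.51) and slightly higher in combod18t (0.16), and Mertk was likewise lower in Combined (-0.30) and higher in combod18t (0.34). At the same cluster mix the Combined values shrank to -0.16 for Itgb5 and -0.05 for Mertk, and with the mixed clusters kept the combod18t value of Itgb5 was 0.01. With 1 library on each side, the difference between the contrasts was not tested, and day and run differ between the pairs and cannot be told apart.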

How the results depend on the processing

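No paired analysis was possible because each label has 1 library and the comparison comes from no test; for the same reason no replicate could be left out. Only members that passed the minimum are counted here. Those past a log2 ratio of 1 in size in combod18t against ctxd18t numbered 1 (Mrc1) as reported, 2 (Mrc1 and Cd36) with the mixed clusters kept and with the same cluster mix, and 0 without the Hspa1a-Hspa1b state. Cd163, below the minimum and so not counted, was at -1.09 with the same mix. In CTX against MRX they numbered 2 as reported and 1 (Cd36) with a pseudocount of 10 CPM and with the same mix, and in Combined against MRX 2 as reported and 1 (Cd36) with the same mix. The cause of these shifts was not tested. Combined against CTX stayed at 0 in every alternative run, and leaving out shared barcodes changed no count. Over single members and Mertk, no called value changed sign; of 121 values for each comparison, 17 (Combined against CTX), 19 (day 18), 32 (CTX against MRX) and 26 (Combined against MRX) moved by more than their counting interval, and 2, 6, 4 and 3 values that were not called changed sign. Highest mean levels in monocyte-macrophage-like cells were found for 6 members in each alternative, but after thinning Stab1 took the place of Cd163. Timd4, Mfge8 and Cd163 rest on few counts, and combod18t is limited by its 221 cells and by the mixed cells left out.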

Other observations

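Gas6, a ligand of MERTK, was at 11.0 CPM in monocyte-macrophage-like cells of MRX, 7.997 CPM in CTX, 2.89 CPM in Combined, 24.0 CPM in ctxd18t and 8.15 CPM in combod18t, too low for the minimum. The log2 ratio without pseudocount was -1.47 (-1.97 to -1.003) for Combined against CTX and -1.56 (-2.21 to -0.97) for combod18t against ctxd18t. In cluster 1, which held most of it, Gas6 was at 15.7 CPM (10.7 to 22.3) in Combined and 20.7 CPM (18.4 to 23.3) in CTX, with overlapping intervals, and that cluster made up 14.25% of the class in Combined and 27.7% in CTX. At the same cluster mix the log2 ratio of CPM + 1 was -0.53 for Combined against CTX and -1.44 at day 18. In the C1qa-Ms4a7 cluster left out as mixed, Gas6 was higher in combod18t, at 16.3 CPM against 6.15 CPM in ctxd18t. It was chosen after its values were seen, and no test was run.

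Hbb-bs, a haemoglobin gene, was at 1286 counts in monocyte-macrophage-like cells of combod18t, of which 1235 lay in 1 cell. The other libraries had 3 to 25 counts in the class, so Hbb-bs in the name Ccl8-Hbb-bs is a label and not a general trait of that state.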
